A study of Mus musculus with 11 samples.

Results

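The leukocyte miRNAs described here are 5 mature products of 4 hairpins: mmu-miR-142-3p, mmu-miR-142-5p, mmu-miR-150-5p, mmu-miR-155-5p and mmu-miR-223-3p. They were taken by name from a count table of 2304 small RNAs, 1592 of them mature miRNAs, and all 5 were found in it. Small RNA was sequenced from cauda epididymal sperm of adult C57BL/6 mice in 7 libraries: 2 wild type (WT), 2 from males with a germ line conditional knockout (cKO) of Dicer and 3 from males with a germ line cKO of Drosha. A WT oocyte library, from superovulated females, and 3 libraries of 2PN embryos (fertilised eggs with 2 pronuclei), made by injecting WT, Dicer cKO or Drosha cKO sperm into eggs, stood alone in their groups. The knockouts were made with Cre and loxP, and the labels name neither the Cre line nor the males behind each library. No messages were sequenced, and the knockouts themselves were therefore not checked here. Libraries of 1 group may share males, and p-values measure the spread between these libraries, which may be technical.

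A miRNA hairpin is cut out of its primary transcript by Drosha in the nucleus and cut again by Dicer in the cytoplasm, and 1 strand of the product then guides an Argonaute protein to target messages through its seed (bases 2 to 8). The miR-142 hairpin is expressed in cells of the blood lineages and gives 2 abundant arms, 3p and 5p. miR-150 is abundant in mature lymphocytes, miR-223 in neutrophils and other myeloid cells, and miR-155, made from the Bic transcript, is induced when lymphocytes and macrophages are activated. Mature sperm make little RNA of their own, and a pellet spun from the cauda epididymis can hold other cells.

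The mature sequences follow, 5′ to 3′, from RefSeq on GRCm38.p6 (the same assembly as mm10), because each has its own seed, printed in capitals, so that each row of counts stands for a separate targeting activity. miR-150-5p is named only.

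miR-142-3p: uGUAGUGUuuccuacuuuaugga

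miR-142-5p: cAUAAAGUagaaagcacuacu

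miR-155-5p: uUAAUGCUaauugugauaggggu

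miR-223-3p: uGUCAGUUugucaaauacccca

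No mature miRNA of another hairpin in that sequence table carried any of these 4 seeds. The closest sequence from another hairpin was 4 single-base edits away for miR-142-5p (miR-3964) and 7 to 9 edits away for miR-142-3p, miR-155-5p and miR-223-3p. These edits are counted over whole sequences, ends included. A shortened read can lie closer, and the mismatches that the counting allowed are not known. The miR-142 arms lie on the plus strand at chr11:87756903-87756925 (3p) and chr11:87756867-87756887 (5p), in a hairpin at chr11:87756864-87756927. That hairpin is overlapped on the minus strand by the Mir142b hairpin, and no other gene of the RefSeq table spans it. The mature miR-142b is a separate case, because its reverse complement, 20 bases long, lies whole within miR-142-3p:

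miR-142b: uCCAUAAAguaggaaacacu

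The miR-142b row held 0 to 6 reads per sperm library against 18 to 721 for miR-142-3p. Whether the counting kept the strands apart is not known, so reads of either may sit in the other's row. A second row for the same 5p arm, under its later name miR-142a-5p, held 1 read in all 11 libraries, in the 2PN library from Drosha cKO sperm. The miR-150 hairpin lies at chr7:45121757-45121821, outside the span of any other gene of the table. The miR-155 hairpin, at chr16:84714140-84714204, lies within the span of the long non-coding RNA gene Mir155hg (Bic), and the miR-223 hairpin, at chrX:96242817-96242926, within that of the long non-coding RNA gene F630028O10Rik. The table gives gene spans and not exons.

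Listed reads (all miRNA and endo-siRNA counts of a library) numbered 73377 and 278890 for WT sperm. They numbered 122989 and 108141 for Dicer cKO and 100934, 12003 and 15921 for Drosha cKO. Oocyte and 2PN libraries held 2951 to 8967. Levels are given as CPM (counts per 1000000 listed reads of the library), where 3 reads amount to 10.8 to 249.9 CPM in sperm and to 335 to 1017 CPM in oocyte and 2PN libraries. CPM is a share, so it moves when other small RNAs move. miR-34b-5p, miR-34c-5p and miR-449a-5p, which mark male germ cells, summed to 14.2% and 13.6% of listed reads in WT, against 0.585% and 0.643% with Dicer lost and 1.18% to 1.92% with Drosha lost. The authors' RPM scale divides by a larger library total and is given beside CPM where it matters. Log2 changes come from edgeR with TMM scaling, fitted to all 7 sperm libraries and 335 features that passed a low-count filter. A feature is called when its Benjamini-Hochberg adjusted p is under 0.05. All 5 leukocyte miRNAs passed the filter, which a miRNA can also do through the group where it is high.

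The 5 leukocyte miRNAs together made up 0.164% and 0.272% of all listed reads for WT, 1.12% and 1.32% in those of Dicer cKO sperm and 0.434% to 0.558% in those of Drosha cKO sperm. The 7 libraries thus fell in 3 groups that did not overlap, with Dicer cKO highest and WT lowest. In RPM the Dicer cKO libraries were again highest, at 497 and 925, but WT, at 35.3 and 273, overlapped Drosha cKO sperm, at 114 to 162. Against WT sperm, miR-150-5p and miR-223-3p were called higher in both kinds of cKO sperm, and miR-142-3p and miR-155-5p passed the test in neither. miR-142-5p was called lower in Drosha cKO sperm alone. In Drosha cKO sperm the call of miR-223-3p was lost under 11 of 19 alternative settings and that of miR-142-5p under 7. miR-155-5p, on few reads, lay above WT in both Dicer cKO libraries and had 0 reads in Drosha cKO replicate 3. In such bulk samples a different number of leukocytes and a different amount of these miRNAs per cell cannot be told apart.

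**Figure D1:**
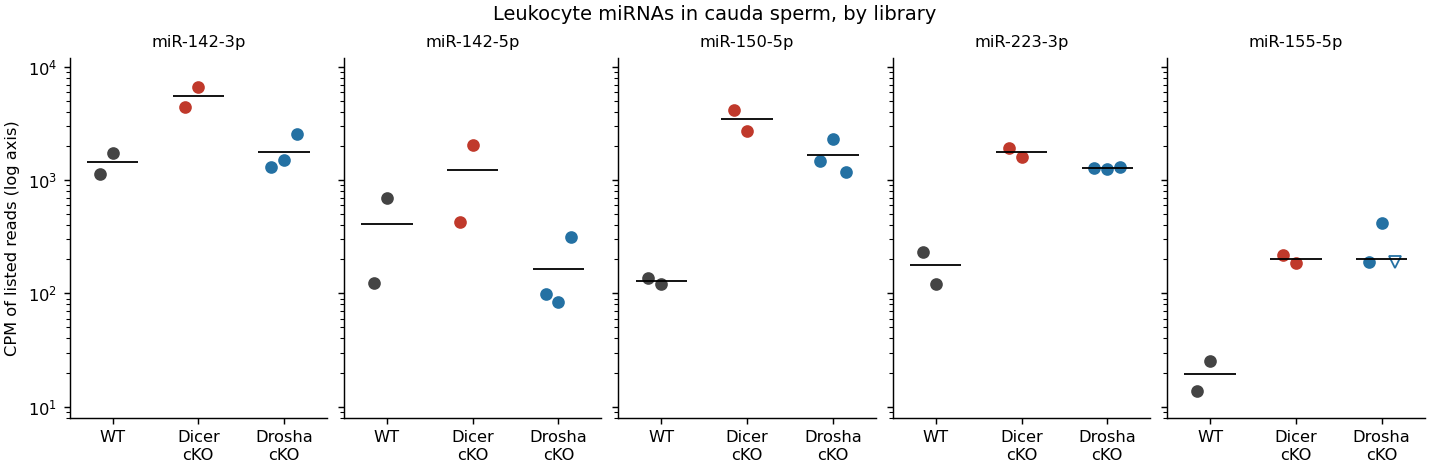
CPM of listed reads (log axis) of the 5 leukocyte miRNAs in each sperm library, 1 panel per miRNA, with a point per library and a bar at the group mean. The open triangle is Drosha cKO replicate 3, with 0 reads of miR-155-5p, drawn at the level of 3 reads. Dicer cKO libraries lie above both WT libraries for every miRNA except miR-142-5p.

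miR-150-5p, the lymphocyte miRNA, stood at 136 and 122 CPM in WT sperm, on 10 and 34 reads. It stood at 4212 and 2709 CPM in Dicer cKO sperm, on 518 and 293 reads, and at 1476, 2333 and 1193 CPM in Drosha cKO sperm. Every cKO library lay above both WT libraries, and the Dicer cKO libraries lay above the Drosha cKO libraries. In RPM the order was the same, with 2.94 and 12.3 for WT, 186 and 190.0 for Dicer cKO and 25.2 to 67.9 for Drosha cKO libraries. Its log2 change from WT was 4.02 in Dicer cKO sperm (SE 0.68, edgeR adjusted p = 3.54e-04), a change higher than that of 98.8% of the tested features. That call was kept under all 19 alternatives, with log2 changes from 3.35 to 4.76 and a highest adjusted p of 0.00522. In Drosha cKO sperm its log2 change was 2.69 (SE 0.63, edgeR adjusted p = 0.0026). That call was lost under 3 of the 19 alternatives: without WT replicate 1 (1.97, edgeR adjusted p = 0.0546), without a low-count filter (adjusted p = 0.0569) and with limma on log2(RPM + 10) (adjusted p = 0.0598).

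miR-223-3p, the myeloid miRNA, stood at 232 and 122 CPM in WT sperm (17 and 34 reads), 1943 and 1591 CPM in Dicer cKO sperm and 1278, 1249.7 and 1319 CPM in Drosha cKO sperm. The 3 groups did not overlap, and the Drosha cKO libraries lay close together although their depth differed. Its log2 change from WT was 2.73 in Dicer cKO sperm (SE 0.63, edgeR adjusted p = 0.00195) and 2.01 in Drosha cKO sperm (SE 0.59, edgeR adjusted p = 0.00947). In Dicer cKO sperm 1 of the 19 alternatives lost the call: without Dicer cKO replicate 1 the change was 2.20 (adjusted p = 0.0873). In Drosha cKO sperm 11 of the 19 lost it, with changes from 1.23 to 1.93 among those 11. Among these, the adjusted p was 0.144 without WT replicate 1, 0.152 without WT replicate 2, 0.188 without Dicer cKO replicate 1, 0.163 without Dicer cKO replicate 2 and 0.0541 without both shallow Drosha cKO libraries (replicates 2 and 3).

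miR-142-3p was the most abundant of the 5 in WT sperm, at 1131 and 1757 CPM, and ranked 84th and 67th among miRNAs there. It stood at 4415 and 6667 CPM in Dicer cKO sperm and at 1298, 1499.6 and 2575 CPM in Drosha cKO sperm. Dicer cKO libraries lay above all others, and WT and Drosha cKO libraries overlapped. The log2 change in Dicer cKO against WT sperm was 1.13 (SE 0.61) and did not pass the test (edgeR adjusted p = 0.141). The WT libraries had TMM factors of 0.899 and 0.497, and the change passed at 1.93 with library totals alone (adjusted p = 0.00758). The log2 change in Drosha cKO sperm was −0.79 (SE 0.56, edgeR adjusted p = 0.244), turned to 0.29 with library totals alone (adjusted p = 0.614), and passed as a fall of −1.83 without WT replicate 1 (adjusted p = 0.0113).

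miR-142-5p, the other arm, differed widely between replicates. It stood at 123 and 692 CPM in WT sperm (9 and 193 reads), at 431 and 2044 CPM in Dicer cKO sperm (53 and 221 reads) and at 99.1, 83.3 and 314 CPM in Drosha cKO sperm (10, 1 and 5 reads). Replicate 2 was the higher one in both WT and Dicer cKO sperm. WT overlapped both cKO groups, which did not overlap each other. Its log2 change in Dicer cKO sperm was 0.59 (SE 0.91, edgeR adjusted p = 0.606), which became 2.53 without WT replicate 2 (adjusted p = 0.0261), −0.32 without WT replicate 1 and −0.84 when Dicer cKO replicate 2 was left out. In Drosha cKO sperm it was called lower, at −2.68 (SE 0.97, edgeR adjusted p = 0.0277), a call that 7 of the 19 alternatives lost. Without WT replicate 2 the change was −0.75 (adjusted p = 0.565), without Drosha cKO replicate 1 it was −2.07 (adjusted p = 0.158), without Drosha cKO replicate 2 it was −2.34 (adjusted p = 0.114), and with Drosha cKO replicates 2 and 3, the shallow libraries, left out it was −3.33 (adjusted p = 0.13).

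miR-155-5p had few reads in every sperm library. WT sperm held 1 and 7 reads (13.6 and 25.1 CPM), Dicer cKO sperm 27 and 20 reads (219.5 and 185 CPM), and Drosha cKO sperm 19, 5 and 0 reads (188, 417 and 0 CPM). Both Dicer cKO libraries lay above WT, as did Drosha cKO replicates 1 and 2. Drosha cKO replicate 3, at 0 reads, allows a share of up to 0.0188% of its 15921 listed reads. That limit lies above the WT shares (0.00136% and 0.00251%), so its place against WT is not known. Its log2 change was 2.36 in Dicer cKO sperm (SE 0.98, edgeR adjusted p = 0.0589) and 2.03 in Drosha cKO sperm (SE 0.997, edgeR adjusted p = 0.0942), so neither passed. In Dicer cKO sperm 9 of the 19 alternatives called it, among them those without Drosha cKO replicate 2 (adjusted p = 0.0498) and without Drosha cKO replicate 3 (adjusted p = 0.0224). For Drosha cKO sperm 3 of the 19 called it, among them those without Drosha cKO replicate 3 (2.72, adjusted p = 0.0208) and with library totals alone (3.07, adjusted p = 0.0136).

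In counts over the list, 2 of the 5 leukocyte miRNAs were called higher in Dicer cKO sperm, where 16.1% of all tested features were called higher. In 4 of the 5, the exception being miR-142-5p, both Dicer cKO libraries lay above both WT libraries in CPM, which held for 46.3% of all tested features. In Drosha cKO sperm 2 of the 5 were called higher, where 22.1% of all tested features were, and 1 lower, where 33.1% were. The same 2, miR-150-5p and miR-223-3p, lay above WT in all 3 Drosha cKO libraries, which held for 42.1% of tested features. The median log2 change of the 5 was 2.36 in Dicer cKO sperm and 2.01 in Drosha cKO sperm, against medians of 0.03 and 0.05 over all tested features. The comparisons of Dicer cKO and Drosha cKO sperm share the WT libraries.

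**Figure D2:**
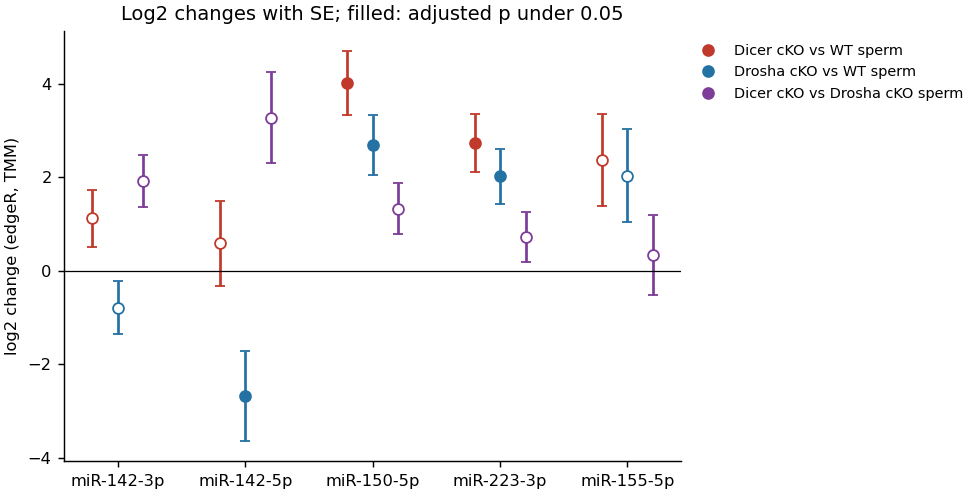
Log2 change of each leukocyte miRNA (edgeR with TMM) in the 3 sperm comparisons, with bars of 1 SE and filled points where the adjusted p was under 0.05. miR-150-5p and miR-223-3p are filled and above 0 against WT in both knockouts, and the arms of miR-142 are the miRNAs whose points lie below 0 in Drosha cKO sperm (miR-142-3p stood at 0.29 with library totals alone).

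The knockouts were also compared with each other, which asks whether loss of Dicer and loss of Drosha leave different miRNAs in sperm. All 5 leukocyte miRNAs had higher fitted levels in Dicer cKO than in Drosha cKO sperm, but 0 of the 5 passed the edgeR test, as did 0% of all tested features. At an unadjusted p under 0.05 edgeR found 65 of the 335 features, 3 of them leukocyte miRNAs, and DESeq2 found 64, also with 3 leukocyte miRNAs. At an adjusted p under 0.05 DESeq2 called 18 features, of which 2 were the arms of miR-142. miR-142-3p had a log2 difference of 1.91 (SE 0.56, edgeR adjusted p = 0.082) and miR-142-5p one of 3.27 (SE 0.97, edgeR adjusted p = 0.082), higher than in 98.5% and 99.1% of tested features. These arms passed under 6 and 10 of the 19 alternatives. Without WT replicate 1 the adjusted p was 0.00137 for 3p and 1.63e-04 for 5p, without WT replicate 2 it was 0.00618 and 0.00121, and without Dicer cKO replicate 1 5p passed alone (adjusted p = 0.00396). The difference was 1.33 for miR-150-5p (SE 0.55, adjusted p = 0.217), 0.72 for miR-223-3p (SE 0.53, adjusted p = 0.449) and 0.33 for miR-155-5p (SE 0.86, adjusted p = 0.865). miR-150-5p passed without WT replicate 1 (1.78, adjusted p = 0.0377), and miR-155-5p turned to −0.21 without Drosha cKO replicate 3. In 4 of the 5, all but miR-155-5p, both Dicer cKO libraries lay above all 3 Drosha cKO libraries in CPM, which held for 15.2% of tested features.

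Ratios between miRNAs of the same library do not depend on how libraries are scaled. For every 100 reads of miR-142-3p, WT sperm held 12.0 (95% exact interval 5.57 to 23.3) and 6.94 (4.75 to 9.83) reads of miR-150-5p. Dicer cKO sperm held 95.4 (84.4 to 108) and 40.6 (35.4 to 46.6), and Drosha cKO sperm 114 (89.3 to 145), 156 (83.1 to 299) and 46.3 (25.4 to 81.7). No interval of a cKO library reached that of a WT library, and the cKO groups overlapped each other. The intervals of the 2 Dicer cKO libraries did not overlap either, so such a gap also arose between replicates of 1 group. These intervals cover counting error only, and with 2 and 3 libraries per group the ratios were not tested.

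miR-223-3p showed a similar order against miR-142-3p. Its reads per 100 of miR-142-3p were 20.5 and 6.94 for WT, 44.0 and 23.9 for Dicer cKO and 98.5, 83.3 and 51.2 for Drosha cKO libraries. The groups did not overlap, although the interval of WT replicate 1 (11.4 to 34.8) held the value of Dicer cKO replicate 2. miR-142-3p therefore made up 69.2% and 64.6% of the reads of the 5 miRNAs in WT libraries, 39.3% and 50.5% with Dicer lost and 26.9% to 47.7% with Drosha lost. miR-150-5p made up 8.33% and 4.49%, then 37.5% and 20.5%, then 22.1% to 41.8%.

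**Figure D3:**
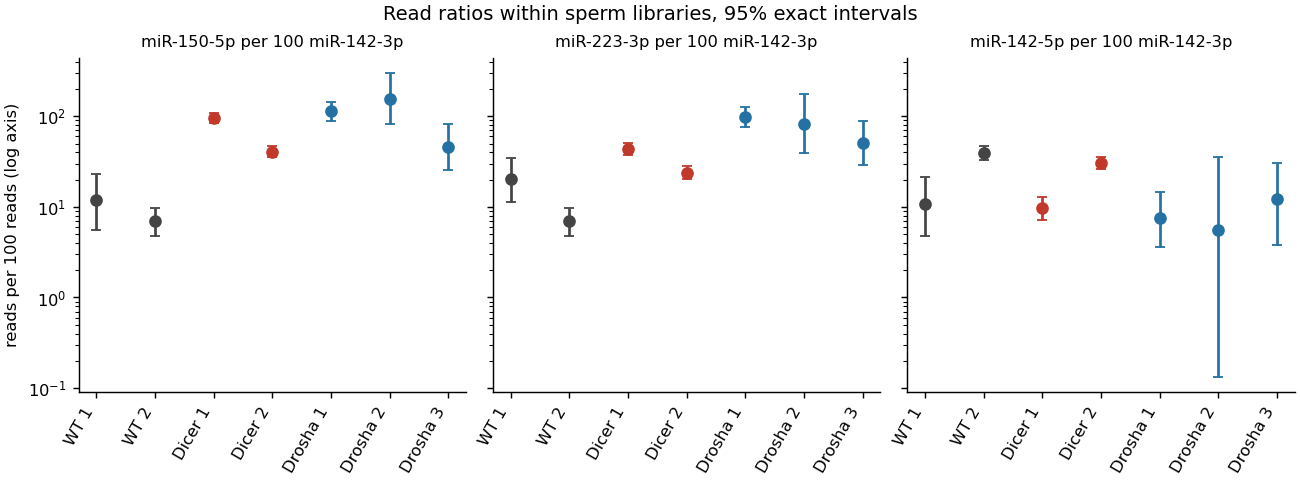
Reads of miR-150-5p, miR-223-3p and miR-142-5p per 100 reads of miR-142-3p (log axis) in each of the 7 sperm libraries, with 95% exact intervals from the counts. The 2 WT points are the lowest for miR-150-5p and miR-223-3p, while for miR-142-5p the high points are replicate 2 of WT and replicate 2 of Dicer cKO sperm.

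The arms of miR-142, which come from the same hairpin, stood in unlike ratios between replicates of WT and of Dicer cKO sperm. Reads of 5p per 100 of 3p numbered 39.4 (33.2 to 46.6) in WT replicate 2 and 30.7 (26.2 to 35.7) in Dicer cKO replicate 2. They numbered 10.8 (4.79 to 21.6) in WT replicate 1, 9.76 (7.22 to 13.0) in Dicer cKO replicate 1 and 7.63 (3.58 to 14.5), 5.56 (0.133 to 35.2) and 12.2 (3.76 to 30.8) in Drosha cKO sperm. Every Drosha cKO value was thus low, that of replicate 2 on 1 read of 5p, and the part of genotype was not tested. The 2 libraries rich in 5p were also those whose listed reads took the largest share of the authors' library total, 10.1% and 7.01%, against 2.11% to 4.43% in the other 5, and the part this plays was not tested. The fall of miR-142-5p called in Drosha cKO sperm was drawn against a WT group that holds 1 of them. Reads of the opposite arms of the other 3 hairpins were too few for a ratio: miR-150-3p, miR-155-3p and miR-223-5p held 0 to 2 reads in every library.

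Blood and tissue markers were looked at alongside, and their counts stand against 16.1% of all tested features called higher in Dicer cKO sperm and 22.1% in Drosha cKO sperm. The red cell miRNAs in the table (miR-451a, miR-144-3p and miR-144-5p) summed to 0.379% and 0.256% of listed reads for WT, 4.04% and 3.84% for Dicer cKO and 1.72% to 2.02% for Drosha cKO libraries, with none of the 3 at 0 in any sperm library. All 3 were called higher in Dicer cKO sperm, and miR-451a and miR-144-3p in Drosha cKO sperm. The 5 epithelial miRNAs of the miR-200 family rose from 1.57% and 1.81% in WT sperm to 13.0% and 16.0% with Dicer lost and 11% to 13.9% with Drosha lost, and all 5 were called higher in both. Both endothelial arms of miR-126a were called higher in Dicer cKO sperm and 1 of them, the 5p arm, in Drosha cKO sperm. Of 4 stromal and smooth muscle miRNAs, miR-143-3p and miR-145a-5p were called higher in Dicer cKO sperm. There miR-199a-3p (0.77, edgeR adjusted p = 0.266) and miR-214-3p (0.16, edgeR adjusted p = 0.852) did not pass. In Drosha cKO sperm the log2 changes of the 4 lay between −0.02 and 0.91, with edgeR adjusted p from 0.169 to 0.971. The part that blood, epithelium or stroma play in the leukocyte miRNAs was not tested.

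Against miR-451a, the erythroid miRNA that Ago2 cuts in place of Dicer, the leukocyte miRNAs behaved unequally. Reads of miR-223-3p per 100 of miR-451a were 7.14 and 7.69 for WT, 5.79 and 5.97 for Dicer cKO and 8.82, 14.6 and 12.2 for Drosha cKO libraries. Reads of miR-150-5p were 4.20 and 7.69 for WT, 12.6 and 10.2 for Dicer cKO and 10.2, 27.2 and 11 for Drosha cKO libraries. Reads of miR-142-3p were 34.9 and 111 for WT, 13.2 and 25.0 for Dicer cKO and 8.96, 17.5 and 23.8 for Drosha cKO libraries. Relative to miR-451a, the value of miR-150-5p was thus higher in all 5 cKO libraries than in either WT library and that of miR-142-3p lower in all 5. Counting intervals overlapped for both. For miR-150-5p that of WT replicate 2 (5.26 to 10.9) overlapped those of Dicer cKO replicate 2 and Drosha cKO replicates 1 and 3. For miR-142-3p that of WT replicate 1 (26.8 to 45) overlapped those of Dicer cKO replicate 2 and Drosha cKO replicates 2 and 3. For miR-223-3p the counting intervals of the WT libraries (4.09 to 11.7 and 5.26 to 10.9) overlapped those of every cKO library. These ratios were not tested.

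**Figure D4:**
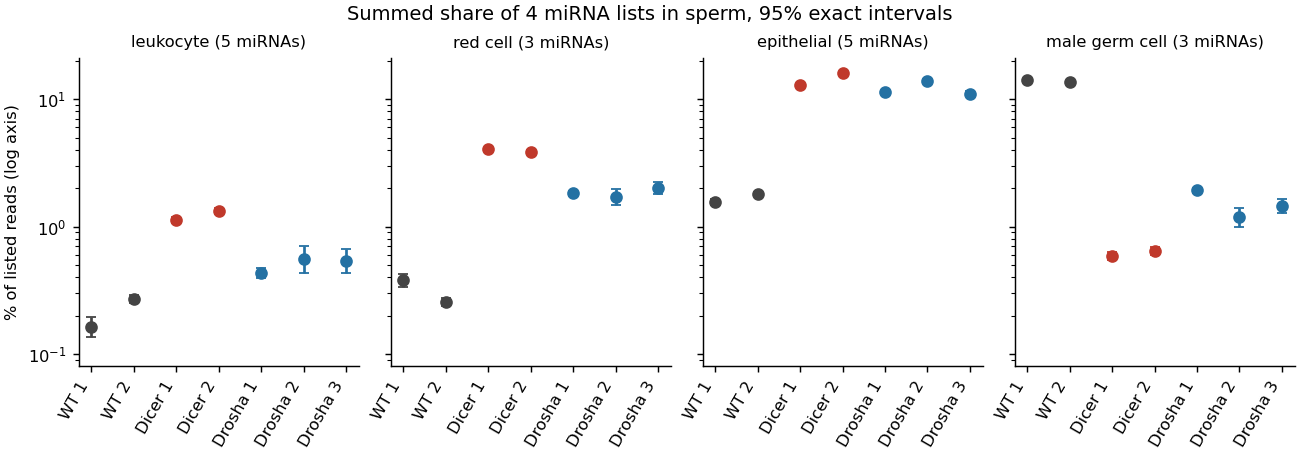
Summed share of listed reads (log axis) of the 5 leukocyte miRNAs and of the red cell, epithelial and male germ cell lists in each sperm library, with 95% exact intervals. The leukocyte and red cell sums are highest in Dicer cKO sperm and lowest in WT sperm, and the male germ cell sum, at 14.2% and 13.6%, is highest in WT sperm.

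Of a wider list of 10 miRNAs of immune cells, 6 could be tested. In Dicer cKO sperm 1 of the 6 was called higher, against 16.1% of all tested features. In Drosha cKO sperm 2 were called higher and 1 lower, against 22.1% and 33.1% of all tested features. The first was miR-21a-5p, which many somatic tissues also express, at a log2 change of 1.52 (SE 0.42, edgeR adjusted p = 0.00747). In Drosha cKO sperm miR-181a-5p, which is expressed in developing lymphocytes and in brain, changed by 2.33 (SE 0.64) and miR-181b-5p by 3.05 (SE 1.05), with edgeR adjusted p = 0.0064 and 0.0225. miR-342-3p, abundant in blood cells and hosted by Evl, was lower there at −1.54 (SE 0.53, edgeR adjusted p = 0.0231), and stood at 2235 and 1836 CPM in WT against 999.8 to 1605 CPM in Drosha cKO sperm. In Dicer cKO sperm miR-342-3p stood at −1.41 and did not pass (adjusted p = 0.0606), and miR-146a-5p, which NF-kappaB induces, did not pass in either comparison (0.94 and 0.52). The list's median was 1.02 in Dicer cKO and 0.55 in Drosha cKO sperm.

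Across the 7 sperm libraries, log2 CPM after TMM scaling, unlike the CPM of listed reads given above, was compared between miRNAs. miR-150-5p and miR-223-3p followed each other with Pearson's r of 0.97, and the arms of miR-142 did so with r of 0.931. miR-142-3p had r of 0.35 with miR-150-5p and 0.278 with miR-223-3p. Outside the list, the features most like miR-150-5p were miR-10b-5p (r = 0.973), miR-101a-3p (0.96) and miR-29c-3p (0.958), and those most like miR-223-3p were miR-5121 (0.97), miR-125b-5p (0.959) and miR-205-5p (0.959). Those most like miR-142-3p were miR-339-5p (0.841), miR-199a-3p (0.831) and miR-146b-5p (0.83), and those most like miR-142-5p were let-7j (0.822), miR-23b-3p (0.767) and miR-335-5p (0.758). miR-155-5p was most like miR-328-3p (0.939), miR-574-5p (0.929) and miR-31-3p (0.891). These are descriptions over 7 points that share 3 groups and their depths.

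In oocyte and 2PN libraries miR-155-5p was the only one of the 5 rows with any read. It held 53 reads in the WT oocyte library (0.958% of listed reads, 95% exact interval 0.719 to 1.25). In 2PN embryos it held 11 reads with WT sperm (0.339%, 0.169 to 0.606), 13 with Dicer cKO sperm (0.441%, 0.235 to 0.752) and 97 with Drosha cKO sperm (1.08%, 0.878 to 1.32). It ranked 13th among miRNAs in the oocyte library and 25th, 15th and 10th in the 2PN libraries, against 139th or lower in every sperm library with a read. Every oocyte and 2PN share lay above that of every sperm library, the highest of which was 0.0417% (0.0135 to 0.0972) in Drosha cKO replicate 2.

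On the authors' RPM scale the order was not the same. miR-155-5p stood at 46.9 RPM in the oocyte library and at 12.7, 8.65 and 79.7 RPM in 2PN embryos made with WT, Dicer cKO and Drosha cKO males' sperm. In sperm it stood at 0.294 and 2.52 RPM in WT, 9.71 and 13.0 RPM in Dicer cKO and 5.08, 12.1 and 0 RPM in Drosha cKO libraries. The oocyte library and the 2PN library from Drosha cKO sperm stayed above all sperm libraries, while the other 2PN libraries fell within the range of cKO sperm. Listed reads took 0.196% to 0.737% of the authors' total in oocyte and 2PN libraries, less than in any sperm library.

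**Figure D5:**
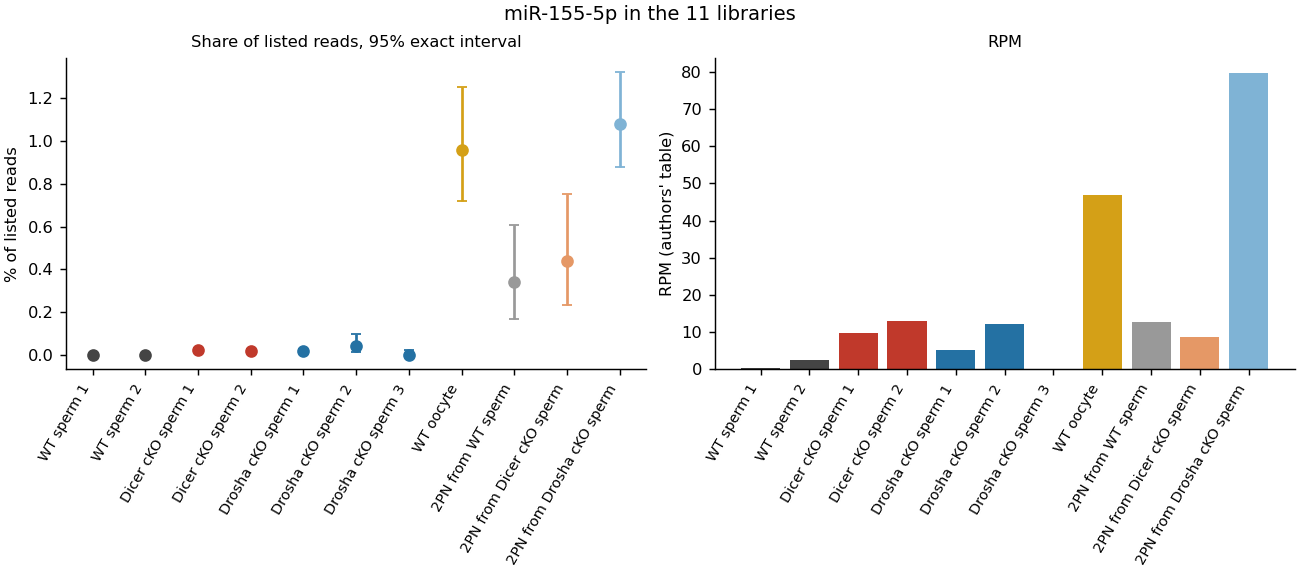
miR-155-5p in the 11 libraries as a share of listed reads with 95% exact intervals (left) and as RPM from the authors' table (right). The WT oocyte library and the 2PN library from Drosha cKO sperm are the highest on both scales, at 0.958% and 1.08% and at 46.9 and 79.7 RPM.

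With 1 library per group there is no test of these differences, and the counting intervals compare libraries and not conditions. In CPM, miR-155-5p was 2.83-fold lower (interval 1.46 to 6.00) in the 2PN library from WT sperm than in the oocyte library, where 32.6% of features with 10 reads in either library differed at least 2-fold. It was 3.19-fold higher (1.71 to 6.60) in the 2PN library from Drosha cKO sperm than in that from WT sperm, and 6.29-fold higher in RPM, where 49.0% of features differed at least 2-fold in CPM. The 2PN library from Dicer cKO sperm had 1.30 times the CPM of that from WT sperm (0.537 to 3.20) and 0.682 times its RPM, and 63.9% of features there differed at least 2-fold in CPM. The median ratio over those features was 1.03, 0.904 and 0.629 in the same order.

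The rows of the other 4, miR-142-3p, miR-142-5p, miR-150-5p and miR-223-3p, had 0 reads in all 4 of these libraries. For the 5p arm of miR-142 this leaves out the 1 read listed as miR-142a-5p in the 2PN library from Drosha cKO sperm. The opposite arm of miR-223, miR-223-5p, held 1 read in the oocyte library and 2 in the 2PN library from Drosha cKO sperm. A count of 0 allows each row a share of up to 0.0542% in the oocyte library and up to 0.0925%, 0.102% and 0.0335% in the 2PN libraries of WT, Dicer cKO and Drosha cKO origin. For miR-142-3p these limits lie below both of its shares in WT sperm (0.113% in replicate 1 and 0.176% in replicate 2). For replicate 1 this depends on the limit used. The exact interval of a 0 count reaches 0.114% in the 2PN library of WT origin and 0.125% in that of Dicer cKO origin. A share of miR-142-3p like that of WT replicate 1 is therefore not excluded in either of these libraries. For miR-142-5p the WT sperm share was 0.0123% in replicate 1, below every limit, and 0.0692% in replicate 2, above some limits and below others. For miR-150-5p and miR-223-3p the limits lie above their shares in WT sperm (0.0122% to 0.0232%), so at this depth levels like those of WT sperm were not detectable. Their shares in Dicer cKO sperm, 0.271% and 0.421% for miR-150-5p and 0.159% and 0.194% for miR-223-3p, lie above the limit of the 2PN library made with such sperm. A 2PN library also holds egg RNA, so shares in sperm and in embryos are not like measures. The male germ cell miRNAs miR-34b-5p, miR-34c-5p and miR-449a-5p took 14.2% and 13.6% of listed reads in WT sperm. In the 2PN library from WT sperm they took 0.0617%. What sperm bring to the egg was not tested. The red cell miRNAs held 0 or 1 read in each oocyte and 2PN library and the epithelial miRNAs 0 to 4.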

How the data were processed

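Per the submitters' processing notes, Bowtie and mm10 were used; for versions, the counting rule, strand handling and the miRNA release the sources used here give nothing. The deposited count table held raw read counts per feature. The authors' second table held RPM, each count divided by 1 total per library (412523 to 3743577); the sources used here do not say what that total counts.

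Counts of the 7 sperm libraries were fitted with edgeR 4.0.16 (R 4.3.3; TMM, default filterByExpr, quasi-likelihood test, two-sided, Benjamini-Hochberg adjustment over 335 features; biological coefficient of variation 0.459). An SE is the log2 change over the root of the test's F. The fit was tested on simulated data. Replicates differed beyond counting error (chi-square per degree of freedom 5.74 to 42.0). Alternatives used DESeq2 1.42.0, limma 3.58.1 on log2(RPM + 1) and log2(RPM + 10), other scalings and filters, and each library left out. Shares have 95% exact (Clopper-Pearson) intervals, and a count of 0 is limited at 3 reads; both cover counting error only.

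All 5 miRNAs are reported. Marker lists came from general knowledge; the red cell entry miR-486-5p had no row. Neighbours are the 3 tested features of highest correlation (log2 CPM after TMM scaling, prior count 2). The miRNAs and lists were chosen with earlier results of these data known. The 2-fold rule between single libraries was set after seeing the data. Sequences and spans came from RefSeq (GRCm38.p6); a genome of another build was not used.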

Additional observations from a re-analysis of the deposited data

How the results depend on the processing

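Of 19 alternatives, the count of leukocyte miRNAs called in Dicer cKO against WT sperm (2) became 4 with library totals alone, limma on log2(RPM + 1) or only the 2 groups compared, and 1 to 3 when each library was left out. In Drosha cKO against WT sperm the count (3) became 1 without a low-count filter, with limma on log2(RPM + 1) or without the shallow Drosha cKO libraries, 0 with limma on log2(RPM + 10), and 1 to 4 when each library was left out. Between the knockouts the count (0) became 1 with the authors' divisor, without a filter or with limma on log2(RPM + 1), 2 with at least 10 CPM in 2 libraries, DESeq2, only the 2 groups compared or the replicate block, and 0 to 3 when each library was left out. Signs turned for miR-142-5p in Dicer cKO sperm (−0.84 to 2.53 over left-out libraries), miR-142-3p in Drosha cKO sperm (0.29 with library totals) and miR-155-5p between the knockouts (−0.21 to 0.85 over left-out libraries, −0.14 with the replicate block). The cause was not tested.

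With the replicate number as a block, 3 leukocyte miRNAs were called in Dicer cKO and 4 in Drosha cKO sperm, miR-155-5p being the one added. Deviations of same-numbered libraries correlated at 0.181 to 0.312; the labels do not say that a number marks a shared batch.

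Scaling moved the median log2 change of all features from 0.03 to 0.62 (library totals) and 0.88 (authors' divisor) in Dicer cKO sperm, from 0.05 to 1.04 and −0.04 in Drosha cKO sperm, and from 0.01 to −0.23 and 0.90 between them. The share of calls that were higher went from 34.2% to 52.6% and 36.6% in Dicer cKO sperm and from 40.0% to 60.1% and 18.5% in Drosha cKO sperm. Depth limits miR-155-5p and miR-142-5p most, with 0 to 10 reads in 4 and 4 sperm libraries.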

Other observations

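Other miRNAs of immune cells were also found in oocyte and 2PN libraries. miR-146b-5p held 15 reads in the WT oocyte library (0.271% of listed reads) and 2, 12 and 40 reads in the 2PN libraries of WT, Dicer cKO and Drosha cKO origin (0.0617%, 0.407% and 0.446%). In sperm its share was 0.00789% to 0.0236%. Its relative miR-146a-5p, which differs from it near the 3′ end, held 4, 0, 2 and 13 reads in the same 4 libraries. miR-181a-5p held 23 reads in the oocyte library and 7, 13 and 26 in 2PN embryos. miR-342-3p held 16 reads in the oocyte library and 7, 1 and 3 in 2PN embryos. Each of these groups is 1 library, so no difference was tested.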
